A study of Saccharomyces cerevisiae with 13 samples.

Results

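The transcript profile of yeast treated with SMER3 was set directly against that of yeast treated with SMER1. The values came from the 1 array hybridised with SMER3 RNA and from the 2 arrays hybridised with SMER1 RNA, and every probe set with 1 gene name was included. Of 5716 probe sets, 5498 carried 1 gene name and 218 carried none. After 1 probe set was kept for each gene, 5449 genes were compared.

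The cells were Saccharomyces cerevisiae BY4741, a haploid MATa laboratory strain in which HIS3, LEU2, MET17 and URA3 are altered. Cultures in YPD, which is a rich medium, were in mid-log phase when they were exposed for 30 min. The groups compared here were SMER3 at 20 µM (1 array), SMER1 at 20 µM (2 arrays) and the solvent DMSO (3 arrays). The standard errors and p-values below came from a fit over all 13 arrays of the series in 8 groups. The other groups were rapamycin, SMER1 with rapamycin, and SMERs that were not compared here. The replicated arrays of rapamycin and of SMER1 with rapamycin entered the estimate of spread. The acronym SMER stands for a small molecule enhancer of rapamycin, which inhibits the growth-promoting kinase TORC1, and both compounds are known here only by these code names. The deposited values are log2 signals from an Affymetrix yeast array, so a difference of 1 is a 2-fold change. Signals of different probe sets are not comparable as levels, and all comparisons below are of 1 gene between arrays. The labels do not say whether arrays of a group came from separate cultures, so the spread between them may be technical.

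SMER3 is known as an inhibitor of the ubiquitin ligase SCF-Met30. That ligase restrains Met4, the activator of the genes that import sulfate, reduce it and build methionine and cysteine. Yeast under TORC1 inhibition is known to lower its ribosome assembly genes and to raise its stress genes and the genes for poor nitrogen sources. The study was designed to find expression signatures of the single SMERs, and setting SMER3 against SMER1 shows in which of these pathways the responses to both compounds differed.

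Because SMER3 has 1 array, its spread was taken from the replicated groups in a limma fit over all 13 arrays of the series, and no SMER3 result has a replicate check. A permutation test of 1 array against 2 cannot give a p below 0.333. A gene was called when its adjusted p from this fit was under 0.05, and ± is the standard error of a difference. Called genes numbered 2542, which is 46.7% of the genes. Of these, 1122 were higher after SMER3 than after SMER1 (20.6% of genes) and 1420 were lower (26.1%). A change of at least 2-fold was reached by 381 of the higher genes (6.99% of all genes) and by 319 of the lower genes (5.85%). These shares are the background for every list below. A list with shares near or under them does not stand out by its count, also where this is not repeated. Where a list below had no called gene in 1 direction, an unadjusted p under 0.05 in limma gave none either, except for 1 higher gene each in methionine and cysteine synthesis, the hexose transporters and the BY4741 markers and 1 lower gene among the Hsf1 chaperones.

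Most differences were small. The median SMER3 minus SMER1 difference was −0.03, the quartiles were −0.41 and 0.33, and 61.4% of genes lay within 0.5 log2 units of the SMER1 mean. The median distance of the SMER3 array from the SMER1 mean was 0.37, and the median distance between the SMER1 arrays was 0.13. The SMER3 value lay outside both SMER1 values in 4761 genes, 87.4% of all. A further array with no treatment difference would also lie outside both in most genes by chance. This share is therefore not a count of genes that differed. Across probe sets the SMER3 array correlated with the SMER1 arrays at r = 0.919 and 0.913, and the SMER1 arrays with each other at r = 0.988. The SMER3 array had the highest median signal of the series, 11.07, against 11.03 on both SMER1 arrays. With the medians scaled to 1 value, 1037 genes were higher after SMER3 and 1539 lower.

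**Figure D1:**
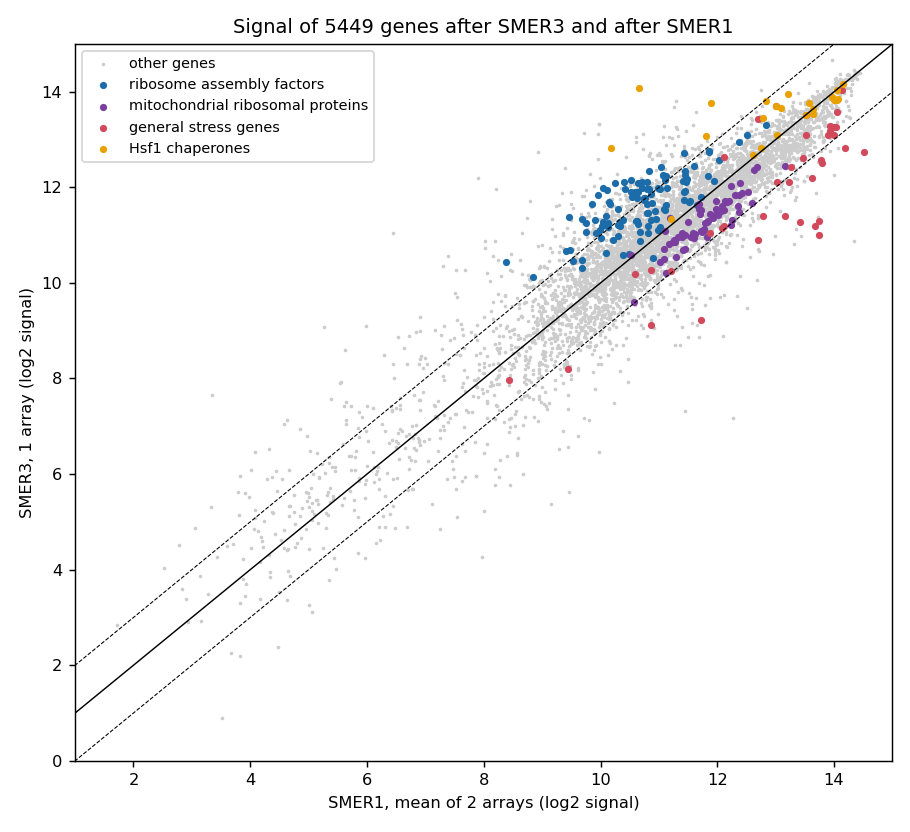
Each point is 1 of 5449 genes, with the SMER3 signal (vertical, log2, 1 array) against the mean SMER1 signal (horizontal, log2, 2 arrays); coloured points are members of the gene lists named in the legend. Most genes lie near the diagonal, most ribosome assembly genes lie above it and most general stress genes below it.

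Several of the largest positive differences were in genes that SMER1 left near the DMSO level. RSB1, a plasma membrane transporter of sphingoid bases, had a signal of 12.20 after SMER3, 7.78 and 8.02 after SMER1, and 7.77, 8.24 and 7.61 in DMSO. The SMER1 and DMSO ranges overlapped and the SMER3 array stood 4.30 ± 0.26 above the SMER1 mean (adjusted p = 6.12e-05). APJ1, a J-domain co-chaperone, had 12.74 after SMER3, 8.89 and 8.96 after SMER1, and 8.98, 9.10 and 9.03 in DMSO. Its difference of 3.82 ± 0.12 (adjusted p = 7.33e-06) was again a rise over SMER1 arrays that lay just under the solvent range. BTN2, which collects misfolded proteins, followed the same pattern with 14.07 after SMER3, 10.81 and 10.51 after SMER1, and 10.62, 10.50 and 10.45 in DMSO, a difference of 3.42 ± 0.17 (adjusted p = 2.38e-05).

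A second kind of difference came from genes that moved to opposite sides of the solvent. MMT1, a mitochondrial iron transporter, had 12.41 after SMER3, 9.37 and 9.42 after SMER1, and 10.59, 10.67 and 10.62 in DMSO. No value of any group overlapped another, and the difference was 3.02 ± 0.08 (adjusted p = 6.5e-06). YGR035C, a gene with no standard name, had 13.33 after SMER3, 10.06 and 9.88 after SMER1, and between 11.29 and 11.58 in DMSO. YDR222W, likewise without a standard name, had 11.96 after SMER3, 8.58 and 7.83 after SMER1, and between 10.08 and 10.36 in DMSO.

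The largest difference of all belonged to YKL070W, another gene known only by its locus. It had 11.05 after SMER3, 6.17 and 6.71 after SMER1, and 5.37, 5.92 and 4.98 in DMSO, a difference of 4.62 ± 0.49 (adjusted p = 0.000388). ECM23, which encodes a GATA-type zinc finger protein, had 7.66 after SMER3, 3.87 and 2.82 after SMER1, and 6.16, 3.47 and 5.05 in DMSO. These low signals scattered widely, and its difference of 4.31 ± 1.10 (adjusted p = 0.0154) was not called without SMER1 replicate 2 (3.79, adjusted p = 0.061). The other 7 of the 15 genes with the largest positive differences ranged from 3.04 in YHR007C-A to 3.80 in YLR412C-A. Among them CIS1 had 13.32 after SMER3, against a mean of 9.97 after SMER1 and 9.42, 9.41 and 9.30 in DMSO. Of these 15 genes, 9 have a locus name only and 2 belong to a list described below.

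The genes most strongly lower after SMER3 were mainly ones that SMER1 raised. FMP45, a plasma membrane protein of the Sur7 family, had 7.18 after SMER3, 11.98 and 12.55 after SMER1, and 7.82, 8.08 and 8.04 in DMSO. The SMER3 value lay under all other arrays of the comparison, and the difference of −5.09 ± 0.34 (adjusted p = 7.23e-05) was the largest negative one. PUT4, the proline permease, had 6.46 after SMER3, 9.96 and 9.99 after SMER1, and 6.91, 6.78 and 7.12 in DMSO, a difference of −3.52 ± 0.14 (adjusted p = 1.27e-05). PDC5, a minor pyruvate decarboxylase, had 10.89 after SMER3, 14.39 and 14.30 after SMER1, and 10.04, 10.35 and 10.76 in DMSO. GPH1, glycogen phosphorylase, had 10.99 after SMER3, 13.75 and 13.73 after SMER1, and 10.03, 10.09 and 10.29 in DMSO. In both of these genes the SMER3 array was above every DMSO array by less than 1 log2 unit, and it differed from the SMER1 mean by −3.46 ± 0.27 in PDC5 and −2.75 ± 0.11 in GPH1.

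Several of the lowest genes act in fat and carbon use or in metal uptake. POX1, the peroxisomal acyl-CoA oxidase, had 4.26 after SMER3, 7.88 and 8.04 after SMER1, and 4.60, 4.06 and 2.94 in DMSO. CAT8, an activator of gluconeogenic genes, had 6.79 after SMER3, 9.69 and 9.55 after SMER1, and between 6.42 and 7.43 in DMSO. LSO1, a gene of the iron starvation response, had 7.31 after SMER3, 11.75 and 11.16 after SMER1, and 5.36, 6.14 and 5.11 in DMSO. It was above the solvent after either compound and lower after SMER3 than after SMER1 by a log2 difference of −4.14 ± 0.55 (adjusted p = 0.00096). The ferric reductase homologue FRE5 lay on opposite sides of DMSO, with 5.38 after SMER3, 9.47 and 8.85 after SMER1, and 8.36, 7.49 and 6.83 in DMSO. VBA3 had a difference of −3.83 ± 0.29, measured by a probe set that is shared with similar transcripts. The other 6 of the 15 genes, which include the kinase gene RCK1 and the G protein subunit mimic GPG1, ranged from −3.20 to −2.76.

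**Figure D2:**
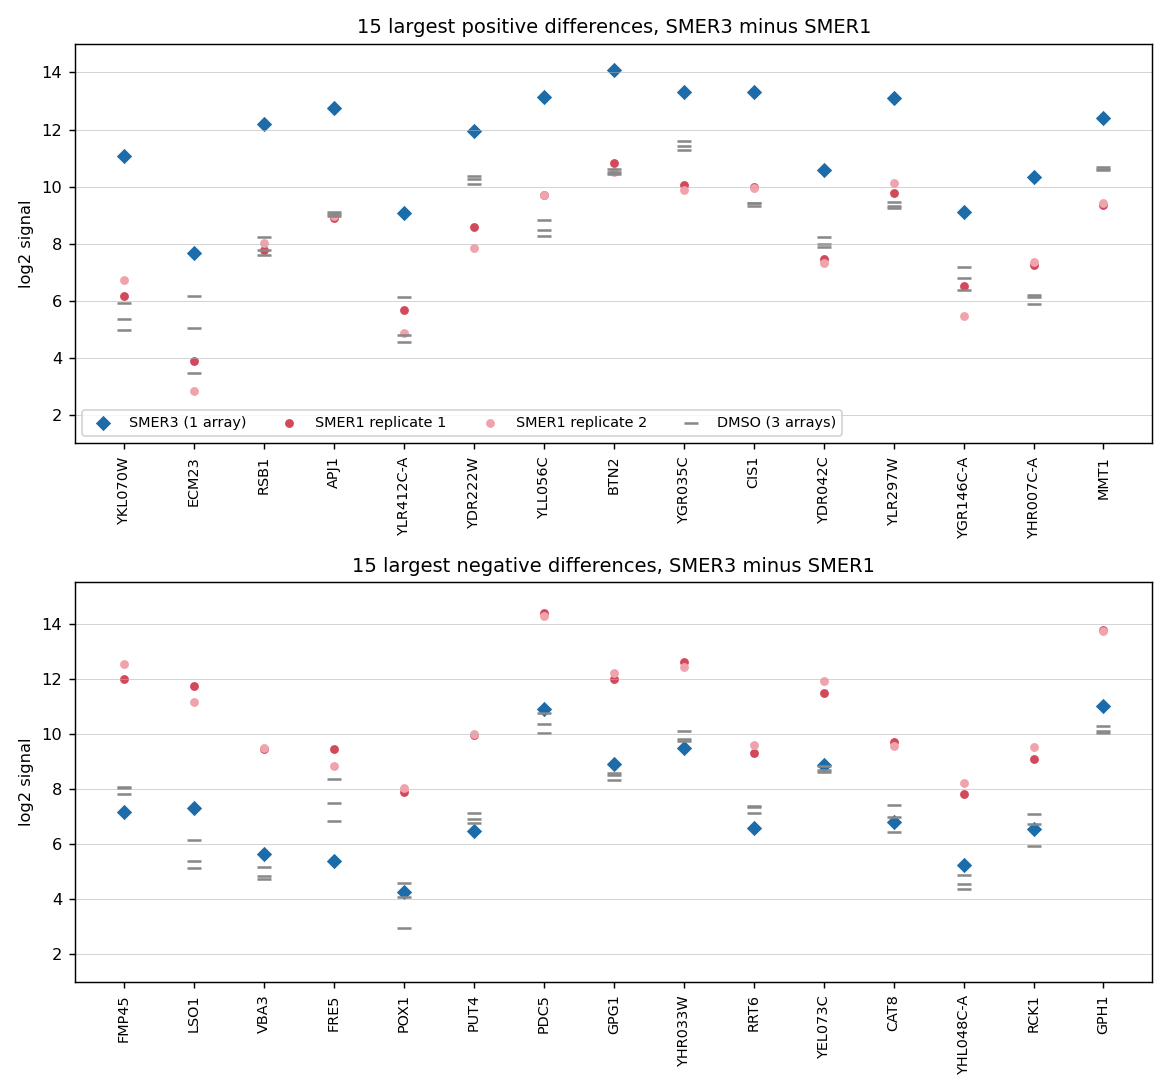
Log2 signal on the SMER3 array, the SMER1 arrays and the DMSO arrays for the 15 genes with the largest positive and the 15 with the largest negative SMER3 minus SMER1 differences. In each gene the SMER3 point is at least 1 log2 unit outside both SMER1 points, since this was part of how the genes were picked; the DMSO points of RSB1, APJ1 and BTN2 lie with SMER1 and those of FMP45 and PUT4 lie near SMER3.

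Genes of sulfate uptake and assimilation were called above DMSO after both compounds in 10 of 10 cases, where 21.6% of all genes were called higher than DMSO after SMER3 and 36.5% after SMER1. Their 10 signals lay above every DMSO array on the SMER3 array and on both SMER1 arrays. Of all 5449 genes, 2178 did so on the SMER3 array and 2685 and 2547 on the SMER1 arrays. The list's median distances from the DMSO mean were 1.68 on the SMER3 array and 1.77 and 2.23 on the SMER1 arrays. Directly compared, 6 of 10 were lower after SMER3, 1 was higher and 3 were not called, with a median difference of −0.42 beside −0.03 over all 5449 genes. The SMER1 arrays themselves differed here, since replicate 2 was above replicate 1 in 10 of 10 genes, beside 2463 of all 5449. The list median was −0.28 against SMER1 replicate 1 alone and −0.61 against replicate 2 alone, so the lean to lower was smaller against replicate 1. When the fit held the SMER3, SMER1 and DMSO arrays only, 3 members were called lower and 0 higher.

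SUL1, a sulfate permease, had the largest difference in the list. Its signal was 7.17 after SMER3, 8.88 and 10.55 after SMER1, and 5.61, 5.38 and 4.50 in DMSO. SMER3 lay between the DMSO arrays and the SMER1 arrays, and the difference of −2.54 ± 0.70 (adjusted p = 0.0214) was not called without SMER1 replicate 2 (−1.71, adjusted p = 0.0562). SUL2, the other permease, had 10.68 after SMER3, 11.36 and 11.72 after SMER1, and between 8.60 and 8.87 in DMSO, a difference of −0.86 ± 0.17 (adjusted p = 0.00575).

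Among the enzymes, MET10, a sulfite reductase subunit, had 11.38 after SMER3, 12.22 and 12.38 after SMER1, and 10.64, 10.52 and 10.35 in DMSO. Its groups did not overlap, and its difference of −0.91 ± 0.14 (adjusted p = 0.00197) was called in every alternative. MET3, which activates sulfate, differed by −0.51 ± 0.15 (adjusted p = 0.0293, and 0.0883 without SMER1 replicate 2). The sulfite reductase subunit MET5 (−0.43) and the phosphatase MET22 (−0.25) had adjusted p-values of 0.047 and 0.0443, which reached 0.172 and 0.167 without SMER1 replicate 2. MET16, which reduces activated sulfate, was the member called higher, with 12.95 after SMER3, 12.37 and 12.61 after SMER1, and a mean of 10.11 ± 0.17 in DMSO (SD, n = 3). Its adjusted p of 0.0415 reached 0.148 when SMER1 replicate 1 was left out. The kinase MET14 (−0.42 ± 0.15), and MET1 (0.46 ± 0.25) and MET8 (−0.25 ± 0.30), both of sirohaem synthesis, were not called.

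Among genes for uptake and salvage of other sulfur compounds, 5 of 10 were higher after SMER3 and 1 was lower, with a median of 0.23. MUP3, a low-affinity methionine permease, had 12.67 after SMER3, 10.74 and 11.29 after SMER1, and 9.60, 9.77 and 9.24 in DMSO. YCT1, a cysteine transporter, had 12.07 after SMER3, 10.32 and 10.93 after SMER1, and between 8.21 and 8.27 in DMSO. Both were above DMSO after either compound and higher again after SMER3, by 1.65 ± 0.29 (adjusted p = 0.00305) and 1.44 ± 0.23 (adjusted p = 0.00188). JLP1, a sulfonate dioxygenase, was higher by 1.26 ± 0.31 (adjusted p = 0.013, and 0.0508 without SMER1 replicate 1), and MMP1, an S-methylmethionine permease, by 0.64 ± 0.21 (adjusted p = 0.0378, and 0.134 without SMER1 replicate 1). The list median was 0.28 against SMER1 replicate 1 alone and 0.16 against replicate 2 alone. SMER3 lay above both SMER1 arrays in 5 of the 10 genes and below both in 4, so the list had no clear lean. The high-affinity methionine permease MUP1 had a difference of −0.04, with a 95% interval from −0.39 to 0.32. BDS1, a sulfatase, was the lower member with 9.15 after SMER3, 10.01 and 10.03 after SMER1, and between 9.43 and 9.54 in DMSO.

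Of 15 methionine and cysteine synthesis genes, 2 were lower, none was higher, and the median was −0.10. These counts moved with the fit: quantile normalisation gave 2 higher and 1 lower, and without SMER1 replicate 2 there was 1 higher and none lower. The called genes were MET12, a methylenetetrahydrofolate reductase gene (−0.32 ± 0.09, adjusted p = 0.022), and CYS4, the first enzyme of transsulfuration (−0.25 ± 0.08, adjusted p = 0.0384). Neither was called without SMER1 replicate 2, at adjusted p-values of 0.0812 and 0.134. MET2, which acetylates homoserine, rose over DMSO by nearly the same amount in both, with 11.76 after SMER3, 11.60 and 11.98 after SMER1, and 8.71, 8.59 and 8.24 in DMSO. Its SMER3 minus SMER1 difference was −0.03 ± 0.23, with a 95% interval from −0.57 to 0.51. STR3, a cystathionine beta-lyase, had 12.89 after SMER3, 11.37 and 12.44 after SMER1, and between 8.27 and 8.50 in DMSO. The SMER1 arrays were 1.07 apart in STR3, and its difference of 0.98 ± 0.41 was not called (adjusted p = 0.0864), but was without SMER1 replicate 2 (1.52, adjusted p = 0.0082).

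The remaining members were HOM3 (0.29), HOM2 (−0.22) and HOM6 (−0.17) of homoserine synthesis, MET6 (−0.38) and MET13 (0.06) of the methyl transfer to methionine, SAM1 (0.15), SAM2 (−0.37) and SAH1 (0.33) of the S-adenosylmethionine cycle, and CYS3 (−0.06) and STR2 (−0.10) of transsulfuration. None of these was called, although MET6 passed in 5 alternatives, for example without DMSO replicate 3 (−0.38, adjusted p = 0.0162). MET17, the sulfhydrylase altered in BY4741, stayed at low signals of 4.45 after SMER3, 4.71 and 5.78 after SMER1, and between 4.32 and 5.75 in DMSO.

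**Figure D3:**
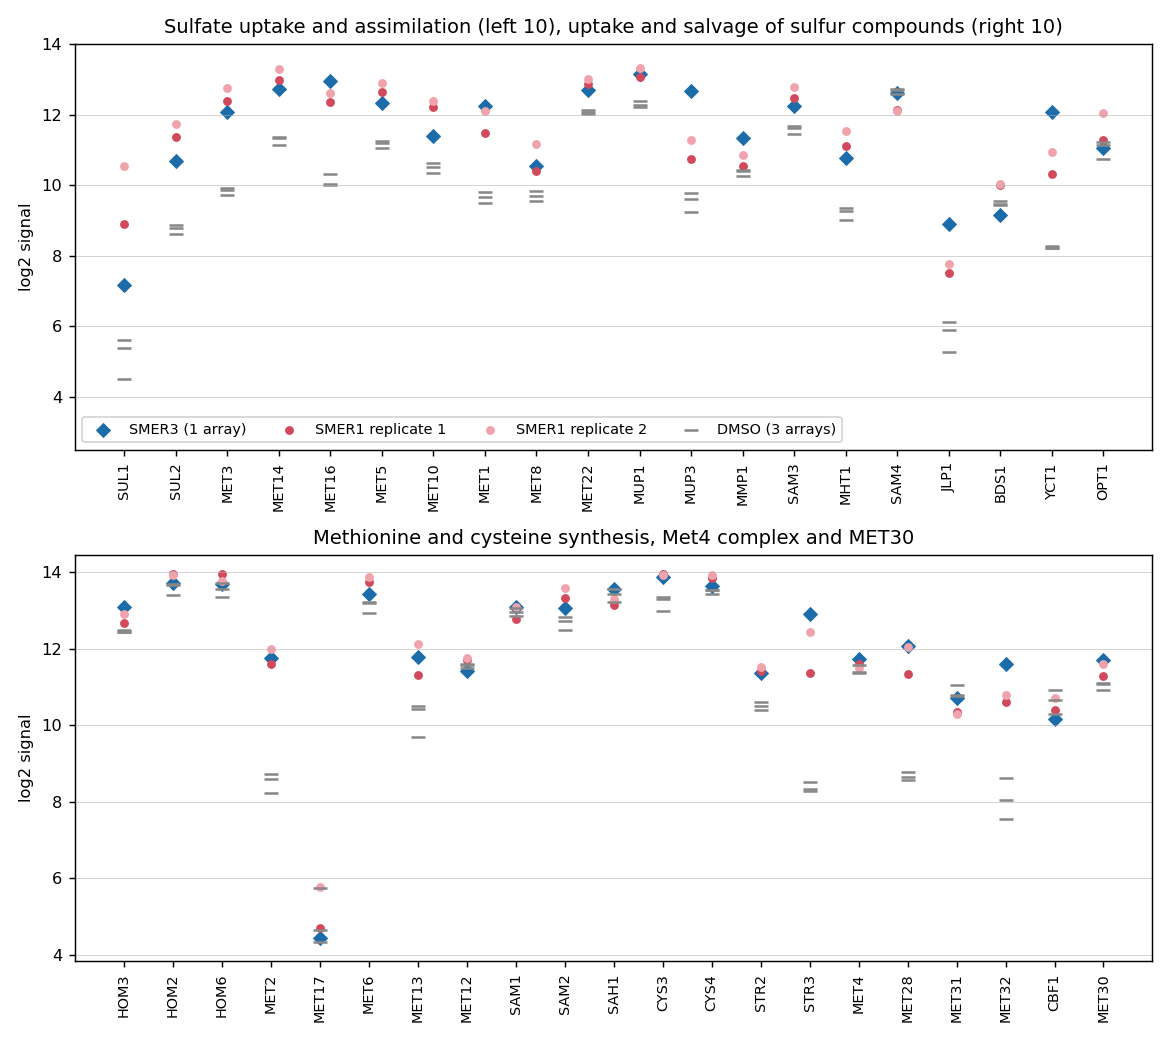
Log2 signal on the SMER3, SMER1 and DMSO arrays for the sulfur genes, with sulfate uptake and assimilation and the uptake of other sulfur compounds above, and methionine and cysteine synthesis, the Met4 complex and MET30 below. In SUL1, SUL2 and MET10 the SMER3 point lies between DMSO and SMER1, whereas in MUP3 and YCT1 it lies above SMER1.

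Of the transcripts for Met4 and its partners, 1 of 5 was higher after SMER3, none was lower, and the median was 0.38. MET32, a DNA-binding partner of Met4, had 11.60 after SMER3, 10.60 and 10.78 after SMER1, and 8.63, 8.05 and 7.54 in DMSO. The SMER3 value lay above both SMER1 values, but the gene's spread within groups gave 0.92 ± 0.38 and an adjusted p of 0.0874. MET28, the bZIP cofactor, had 12.06 after SMER3, 11.33 and 12.04 after SMER1, and between 8.57 and 8.77 in DMSO (0.38 ± 0.28, not called). MET31, the paralogue of MET32, was the called gene at 0.41 ± 0.14 (adjusted p = 0.0453), a call lost without SMER1 replicate 1 or 2 (adjusted p = 0.0906 and 0.129). MET4 itself differed by 0.20 ± 0.14 and CBF1 by −0.39 ± 0.27, neither of which was called.

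The F-box gene MET30 had 11.71 after SMER3, 11.28 and 11.60 after SMER1, and 10.91, 11.07 and 11.11 in DMSO. Both compounds lay above the solvent, and they differed from each other by 0.27 ± 0.16 (adjusted p = 0.22, 95% interval −0.11 to 0.64). Of the 8 SCF genes, 3 were lower after SMER3 and none was higher. HRT1, the RING subunit, had 11.14 after SMER3, 12.08 and 12.14 after SMER1, and 11.34, 11.55 and 11.59 in DMSO, so that SMER3 and SMER1 were on opposite sides of the solvent and differed by −0.96 ± 0.12 (adjusted p = 0.000807). The adaptor SKP1 was lower by a log2 difference of −0.55 ± 0.10 (adjusted p = 0.00425), and the cullin CDC53 by −0.49 ± 0.15 (adjusted p = 0.0351, and 0.125 without SMER1 replicate 1). The E2 enzyme gene CDC34 (0.19), the F-box genes CDC4 (0.01) and GRR1 (−0.23) and the modifier RUB1 (−0.07) were not called.

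Protein folding genes under Hsf1, the heat shock factor, were higher after SMER3 in 9 of 24 cases and lower in none, and the list median was 0.07. Against DMSO, 17 of the 24 were called higher and none lower after SMER3, and 15 were called higher and 2 lower after SMER1. Over all genes 14.8% were called lower after SMER3 and 25% after SMER1. BTN2 is described above. CUR1, its paralogue, had 12.82 after SMER3, 10.16 and 10.19 after SMER1, and 10.06, 10.21 and 10.13 in DMSO, a difference of 2.65 ± 0.11 (adjusted p = 1.27e-05). FES1, a nucleotide exchange factor of Hsp70, had 13.78 after SMER3, 11.88 and 11.91 after SMER1, and between 12.26 and 12.37 in DMSO. MDJ1, a mitochondrial J protein, was higher by 1.27 ± 0.17, and SSA4, an inducible Hsp70, by 0.97 ± 0.23. SSA4 was also above DMSO after SMER1, with 13.80 after SMER3, 12.76 and 12.91 after SMER1, and 10.53, 10.53 and 10.83 in DMSO. The Hsp90 gene HSP82 was above DMSO after both and differed by −0.01 (95% interval −0.32 to 0.31).

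RPN4, the transcription factor of the proteasome genes, had 13.58 after SMER3, 11.62 and 11.65 after SMER1, and 11.44, 11.48 and 11.56 in DMSO, a difference of 1.94 ± 0.09 (adjusted p = 2.06e-05). It was the 1 member of 34 called higher, and 29 were called lower, with a median of −0.49. Members of the list were above every DMSO array on both SMER1 arrays in 34 of 34 cases and on the SMER3 array in 19 of 34. Of all 5449 genes, 2685 and 2547 were above every DMSO array on the SMER1 arrays and 2178 on the SMER3 array. RPN13, a ubiquitin receptor, had 12.37 after SMER3, 13.40 and 13.30 after SMER1, and between 12.59 and 12.71 in DMSO (−0.98 ± 0.10, adjusted p = 0.00029). PUP3, RPN7 and PRE3 differed by −0.84, −0.81 and −0.81, each less than 2-fold.

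In the unfolded protein response, 3 of 12 genes were higher and 1 was lower, with a median of 0.17. ERO1, the thiol oxidase of the endoplasmic reticulum, had 13.48 after SMER3, 12.41 and 12.42 after SMER1, and between 12.25 and 12.30 in DMSO, a difference of 1.07 ± 0.07 (adjusted p = 7.35e-05). EUG1, a protein disulfide isomerase, was higher by 1.06 ± 0.13, and it lay below DMSO after SMER1. HAC1, the transcription factor of the response, was lower by a log2 difference of −0.56 ± 0.09, with 13.04 after SMER3, 13.59 and 13.60 after SMER1, and between 13.01 and 13.19 in DMSO.

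Detoxification genes were called in both directions. Of 23 oxidoreductase and Yap1 genes, 11 were higher after SMER3 and 8 were lower, with a median of 0.16. OYE3, an old yellow enzyme, had 12.80 after SMER3, 10.66 and 10.79 after SMER1, and 7.53, 7.58 and 7.66 in DMSO (2.08 ± 0.10, adjusted p = 2.27e-05). Its paralogue OYE2 had a difference of 0.01 (95% interval −0.27 to 0.28). FRM2 and HBN1, which encode nitroreductase-like proteins, were higher by 2.67 ± 0.32 and 1.92 ± 0.25. FRM2 had 10.87 after SMER3, 7.92 and 8.48 after SMER1, and 7.77, 7.76 and 8.26 in DMSO, so that it rose over the solvent range after SMER3 and overlapped it after SMER1. YCR102C was higher by 2.37 ± 0.40. ZTA1, a quinone oxidoreductase, ran the other way with 10.70 after SMER3, 12.61 and 12.77 after SMER1, and between 10.48 and 10.78 in DMSO (−1.99 ± 0.14, adjusted p = 7.61e-05).

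The glutathione and thioredoxin list leaned lower, with 9 of 23 genes lower, 1 higher and a median of −0.18. The 1 higher gene was SRX1, the sulfiredoxin that repairs peroxiredoxins, with 13.67 after SMER3, 11.04 and 11.48 after SMER1, and 8.50, 8.71 and 8.54 in DMSO (2.41 ± 0.17, adjusted p = 7.89e-05). GTT1, a glutathione transferase, had 11.85 after SMER3, 13.18 and 13.10 after SMER1, and between 11.62 and 11.70 in DMSO (−1.29 ± 0.09). Its partner GTT2 was about 4 log2 units above DMSO after both compounds and differed by 0.29 (95% interval −0.32 to 0.90). The peroxidase HYR1, the peroxiredoxin DOT5 and the glutaredoxin GRX1 differed by −0.70, −0.67 and −0.66. Of 8 catalase, superoxide dismutase and regulator genes, 2 were higher and 1 was lower (median 0.12). CTA1, the peroxisomal catalase, had 10.48 after SMER3, 7.79 and 8.70 after SMER1, and between 6.36 and 7.28 in DMSO (2.24 ± 0.47), whereas the cytosolic catalase CTT1 differed by 0.51 (95% interval −0.05 to 1.07).

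The pleiotropic drug resistance genes were higher after SMER3 in 8 of 15 cases and lower in 2, with a median of 0.50. RSB1 led them. ICT1, an acyltransferase, had 13.07 after SMER3, 11.23 and 11.40 after SMER1, and 11.16, 11.19 and 11.26 in DMSO, so that only SMER3 stood clear of the solvent (1.75 ± 0.10, adjusted p = 3.85e-05). TPO4, a polyamine exporter, was above DMSO after both and higher after SMER3 by 1.03 ± 0.22. The ABC transporters PDR12 (−1.02 ± 0.24) and PDR15 (−0.99 ± 0.15) were lower after SMER3.

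The general stress genes of Msn2 and Msn4 were called above DMSO in 36 of 39 cases after SMER3 and in 39 after SMER1. Directly compared, 31 were lower, 16 of them by at least 2-fold, and 2 were higher, HSP42 and SPI1. The median difference was −0.92. Their median distance from the DMSO mean was 1.28 on the SMER3 array and 2.58 and 2.79 on the SMER1 arrays. SOL4, of the pentose phosphate pathway, had 11.18 after SMER3, 13.66 and 13.70 after SMER1, and 9.17, 9.31 and 9.54 in DMSO (−2.50 ± 0.16, adjusted p = 6.12e-05). PGM2, phosphoglucomutase, had 11.30 after SMER3, 13.74 and 13.74 after SMER1, and between 10.37 and 10.68 in DMSO (−2.44 ± 0.13). The protease inhibitor PAI3 and the glutamate decarboxylase GAD1 differed by −2.51 ± 0.14 and −2.15 ± 0.15. The small heat shock protein gene HSP26 was not called, and neither were DDR2, GAC1, XBP1, HOR7 and CTT1. In such bulk RNA, a smaller share of cells in a state and less RNA per cell cannot be told apart.

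**Figure D4:**
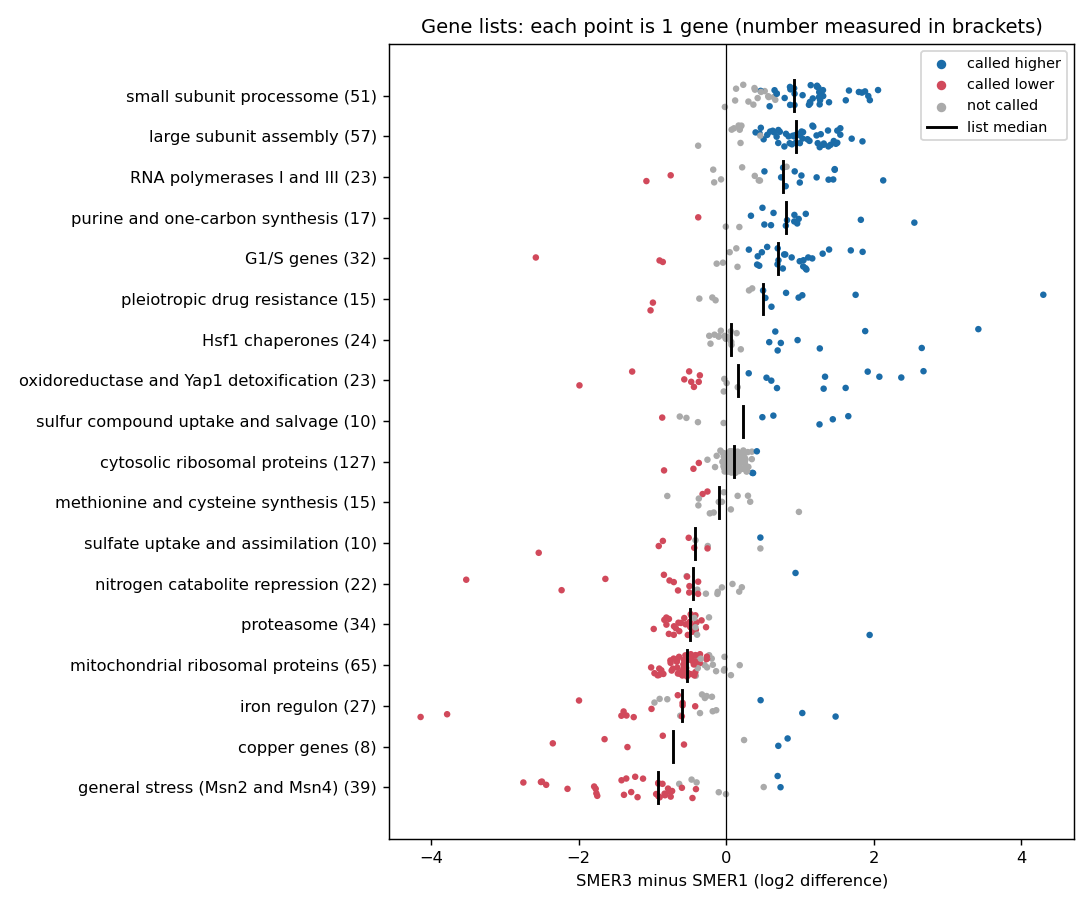
SMER3 minus SMER1 difference (log2, horizontal) of every measured member of the gene lists named on the vertical axis, coloured by call, with the list median as a black line. The ribosome assembly lists lie to the right of 0 with medians of 0.93 and 0.94, and the general stress, proteasome and mitochondrial ribosome lists lie to the left with medians of −0.92, −0.49 and −0.53.

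Of 20 glycolysis and fermentation genes, 5 were lower after SMER3, a share near the background of 26.1%, none was higher, and the median was −0.06. The 3 past 2-fold were PDC5, PDC6 and PYK2. PDC5 is given above, and PDC6, a further pyruvate decarboxylase, had 10.82 after SMER3, 13.14 and 13.48 after SMER1, and 10.89, 10.79 and 11.32 in DMSO (−2.49 ± 0.23). The main decarboxylase PDC1 differed by −0.03 (95% interval −0.29 to 0.24). PYK2, the minor pyruvate kinase, had 10.43 after SMER3, 12.04 and 12.25 after SMER1, and between 10.13 and 10.64 in DMSO. In these isozymes the SMER3 array overlapped the solvent range or lay just beside it, and SMER1 stood above. Without DMSO replicate 3, 8 of the 20 genes were called lower.

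Among 16 hexose transporters and sensors, 4 were lower, a share of 25% near the background of 26.1%. None was higher, and the median was −0.001. HXT5, a transporter of slowly growing cells, had 9.68 after SMER3, 11.65 and 12.09 after SMER1, and between 7.05 and 7.36 in DMSO (−2.19 ± 0.23). HXT7, whose sequence is nearly identical to that of HXT6 and may share its signal, differed by −1.81 ± 0.30. The glucose sensors RGT2 and SNF3 differed by −0.73 and −0.62.

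Of 18 genes for gluconeogenesis, the glyoxylate cycle or the oxidation of fatty acids, 10 were lower and 3 were higher, with a median of −0.58. The lower genes were led by fat oxidation, with POX1 as above and the thiolase POT1 at −2.67 ± 0.42. CRC1, the acylcarnitine carrier, had 7.98 after SMER3, 9.50 and 9.49 after SMER1, and 7.13, 6.70 and 6.79 in DMSO. It was above the solvent after both compounds and differed between them by −1.51 ± 0.17 (adjusted p = 0.000433), and the carnitine acetyltransferase CAT2 differed by −1.04. The higher genes were ICL1, MLS1 and IDP2, of the glyoxylate cycle and NADPH supply, and 1 of them was called when any 1 of DMSO replicate 2, the rapamycin arrays or the arrays of SMER1 with rapamycin was left out of the fit. Many of these signals are dim, and 3 genes were called lower, none higher, when the dimmest 25% of genes were left out. That setting also tested fewer of these genes.

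The respiratory list of 38 genes had 9 lower and 3 higher members and a median of −0.08. Its shares of 23.7% lower and 7.89% higher were under the background of 26.1% and 20.6%. CYC1, the main cytochrome c, had 13.06 after SMER3, 10.45 and 10.78 after SMER1, and 11.24, 11.46 and 11.42 in DMSO, with SMER3 above and SMER1 below the solvent (2.45 ± 0.15, adjusted p = 6.12e-05). CYC7, the cytochrome c of poor oxygen supply and not a member of the list, had 11.21 after SMER3, 12.25 and 12.87 after SMER1, and 8.77, 8.93 and 9.27 in DMSO. It was thus above DMSO after both and lower after SMER3 by a log2 difference of −1.35 ± 0.28 (adjusted p = 0.007). COX5B, the oxidase subunit of the same condition and likewise outside the list, differed by −1.23 ± 0.13, and its partner COX5A by 0.10 (95% interval −0.14 to 0.34). NDE2, an external NADH dehydrogenase, had 7.49 after SMER3, 10.09 and 10.39 after SMER1, and between 6.22 and 6.56 in DMSO (−2.74 ± 0.19), while NDE1 differed by 0.14. These isozyme pairs were picked after their values had been seen. The 9 lower members of the list were NDE2 and 8 ATP synthase genes, and these 8 ranged between −0.64 and −0.27. Without SMER1 replicate 2, 4 members of the list were called lower.

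Genes under nitrogen catabolite repression, which cells use for poor nitrogen sources, were lower in 12 of 22 cases and higher in 1, with a median of −0.45. GAP1, the general amino acid permease, had 10.15 after SMER3, 12.31 and 12.46 after SMER1, and 9.80, 9.97 and 10.07 in DMSO. It stood 0.21 above the solvent mean after SMER3 and 2.44 above it after SMER1, and the difference was −2.23 ± 0.12 (adjusted p = 3.85e-05). The urea permease DUR3 differed by −0.84 ± 0.21 and the ureidoglycolate hydrolase gene DAL3 by −1.64 ± 0.49 (adjusted p = 0.0289, and 0.0874 without SMER1 replicate 1). DAL7, a malate synthase of allantoin use, was the higher member, with 10.52 after SMER3, 9.61 and 9.55 after SMER1, and a mean of 8.90 ± 0.09 in DMSO (SD, n = 3). Of 11 retrograde response genes, 3 were lower (27.3%, near the background of 26.1%) and 1 was higher, with a median of −0.01. CIT1, mitochondrial citrate synthase, differed by −0.60 ± 0.07.

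Of 26 autophagy genes, 10 were lower after SMER3 and 3 were higher, with a median of −0.20. ATG34, a receptor for vacuolar enzymes, had 9.56 after SMER3, 11.67 and 11.46 after SMER1, and between 9.16 and 9.48 in DMSO, and was 4.01-fold lower after SMER3 (adjusted p = 7.35e-05). ATG10, an E2-like conjugating enzyme, ran the other way with 9.73 after SMER3, 8.49 and 8.25 after SMER1, and between 8.30 and 8.51 in DMSO (1.36 ± 0.20).

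Most ribosome assembly genes were higher after SMER3 than after SMER1. Against DMSO, 17 of 51 small subunit and 15 of 57 large subunit genes were called lower after SMER3, and 51 and 56 were called lower after SMER1. Over all genes 14.8% were called lower after SMER3 and 25% after SMER1. The SMER3 signal lay below every DMSO array in 47 of the 51 and 53 of the 57, beside 2038 of all 5449 genes. Standard errors against DMSO are larger for the 1 SMER3 array than for the 2 SMER1 arrays, which makes calls rarer for SMER3. In the small subunit processome 36 of 51 genes were higher after SMER3, 24 of them by at least 2-fold, none was lower, and the median was 0.93. Their median distance from the DMSO mean was −0.51 on the SMER3 array and −1.57 and −1.35 on the SMER1 arrays. DHR2, a helicase, had 10.43 after SMER3, 8.26 and 8.49 after SMER1, and 11.14, 10.94 and 11.02 in DMSO (2.06 ± 0.23, adjusted p = 0.000481). ESF2 was above the solvent range after SMER3, with 11.38 after SMER3, 9.40 and 9.50 after SMER1, and 11.27, 11.21 and 11.10 in DMSO (1.93 ± 0.14). KRE33, an RNA acetyltransferase, and KRR1 were higher by 1.95 ± 0.30 and 1.84 ± 0.20.

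In large subunit assembly 48 of 57 genes were higher, none was lower, and the median was 0.94. NOP13 had 12.10 after SMER3, 10.17 and 10.34 after SMER1, and between 12.27 and 12.31 in DMSO (1.85 ± 0.20), and SDA1, RRP1 and RPF1 were higher by 1.55 to 1.70. SMER1 replicate 2 was above replicate 1 in 52 of these 57 genes, beside 2463 of all 5449, and the list's median difference was 0.21. Without SMER1 replicate 1, 31 members were called higher.

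RNA polymerases I and III, which make ribosomal and transfer RNA, had 13 of 23 genes higher and 2 lower, with a median of 0.77. RPA43, of polymerase I, had 11.81 after SMER3, 9.50 and 9.86 after SMER1, and 11.80, 11.93 and 11.85 in DMSO. The SMER3 array lay inside the solvent range and was higher than SMER1 by 2.13 ± 0.28 (adjusted p = 0.000906). RPC25 and RPC34, of polymerase III, were both higher by 1.47. The lower members were RRN7 and RRN11, both of the core factor that recruits polymerase I, at −0.75 and −1.08.

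Of 127 cytosolic ribosomal protein genes, 3 were higher, 3 were lower and 121 were not called, with a median of 0.10. The SMER3 signal lay above both SMER1 arrays in 91 of the 127 and below both in 11. Over all 5449 genes these counts were 2241 and 2520. RPS9A had 12.10 after SMER3, 12.88 and 13.01 after SMER1, and between 12.94 and 13.04 in DMSO (−0.84 ± 0.22, adjusted p = 0.0183, and 0.0664 without SMER1 replicate 2). The near-identical pair RPL9A and RPL9B, whose signals may mix, differed by 0.36 and −0.37. The count of higher genes depended on the scaling and on the arrays in the fit. Quantile normalisation of the arrays gave 50 and centring on the medians gave 1. Leaving out DMSO replicate 3 gave 8, and leaving out either SMER1 array, DMSO replicate 2 or either rapamycin array gave 0. The genes for mitochondrial ribosomal proteins were lower in 50 of 65 cases and higher in none, with a median of −0.53. Their median distance from the DMSO mean was −0.11 on the SMER3 array and 0.41 and 0.40 on the SMER1 arrays. MRPL8 had 11.21 after SMER3, 12.21 and 12.24 after SMER1, and 11.62, 11.52 and 11.57 in DMSO (−1.02 ± 0.08, adjusted p = 0.000125), and it was the 1 member past 2-fold.

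Purine and one-carbon genes were higher after SMER3 in 14 of 17 cases and lower in 1, with a median of 0.81. AAH1, adenine deaminase, had 11.89 after SMER3, 9.01 and 9.67 after SMER1, and 12.29, 12.34 and 12.26 in DMSO (2.55 ± 0.44, adjusted p = 0.00293). ADE17, of the last steps to inosine monophosphate, had 13.04 after SMER3, 11.21 and 11.22 after SMER1, and between 12.98 and 13.21 in DMSO. Both genes were close to the solvent after SMER3 and far below it after SMER1. The lower member was ADE16, the paralogue of ADE17, at −0.38.

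**Figure D5:**
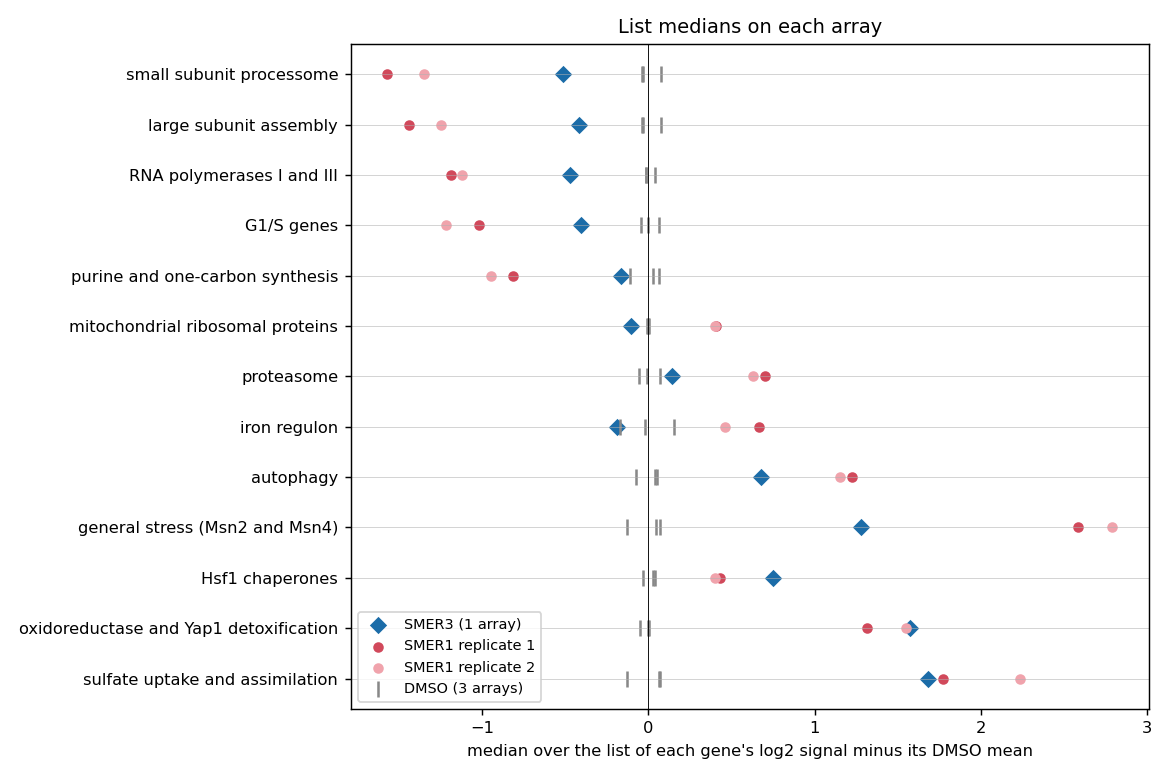
For each gene list, the median over its members of the log2 signal minus the DMSO mean, on the SMER3 array, the SMER1 arrays and each DMSO array. The small subunit processome stands at −0.51 on the SMER3 array and at −1.57 and −1.35 on the SMER1 arrays, and the general stress list at 1.28 on the SMER3 array and at 2.58 and 2.79 on the SMER1 arrays.

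Counts against the solvent place these lists, with the reminder that both comparisons share the 3 DMSO arrays. SMER3 has 1 array and SMER1 has 2, so standard errors are larger for SMER3 and fewer calls need not mean fewer changes. Against DMSO, 21.6% of all genes were called higher and 14.8% lower after SMER3, and 36.5% were called higher and 25% lower after SMER1. The median over all genes was 0.02 for SMER3 minus DMSO and 0.09 for SMER1 minus DMSO. In the small subunit processome the median was −0.51 for SMER3 and −1.45 for SMER1, in the general stress list 1.28 and 2.70, in the proteasome 0.14 and 0.67, and in the Hsf1 list 0.75 and 0.47.

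Cell cycle genes were called in both directions. CLN3, the cyclin that opens G1, had 9.86 after SMER3, 11.33 and 11.46 after SMER1, and 11.09, 11.27 and 11.21 in DMSO (−1.54 ± 0.16, adjusted p = 0.000375). SMER1 lay beside the solvent and SMER3 well below both. PCL1, a G1 cyclin of the Pho85 kinase, had 8.70 after SMER3, 11.32 and 11.23 after SMER1, and 11.33, 11.37 and 11.40 in DMSO, a difference of −2.58 ± 0.09 (adjusted p = 7.33e-06). Its paralogue PCL2 differed by 0.14 (95% interval −0.26 to 0.53). Of 6 regulators of Start, 3 were lower and 1 was higher. Beside CLN3, the inhibitor genes WHI5 (−1.24 ± 0.40, adjusted p = 0.039, and 0.0514 without SMER1 replicate 1) and FAR1 (−0.50 ± 0.14, adjusted p = 0.0259) were lower and SWI6, a subunit of the G1/S factors, was higher (0.57 ± 0.14, adjusted p = 0.0116). Without SMER1 replicate 2 these 3 were not called, at 0.134, 0.0951 and 0.0503, which left CLN3. MBP1 (0.16) and SIC1 (−0.06) were not called.

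Of 32 G1/S genes, 24 were higher after SMER3 and 3 were lower, with a median of 0.70. Without SMER1 replicate 2, 15 were called higher. The higher genes were largely those of DNA replication and repair, and the 5 named here lay below DMSO after SMER1. MSH6, of mismatch repair, had 11.05 after SMER3, 9.45 and 9.27 after SMER1, and 11.20, 11.10 and 11.07 in DMSO (1.69 ± 0.12, adjusted p = 7.35e-05). POL1, DNA polymerase alpha, was higher by 1.39 ± 0.20, the cohesin gene MCD1 by 1.07 and the regulator TOS4 by 1.31 ± 0.27. HO, the mating type endonuclease, had 10.78 after SMER3, 9.19 and 8.68 after SMER1, and between 11.67 and 11.90 in DMSO. The 3 lower members were PCL1, the transcription factor SWI4 (−0.90) and the cyclin CLN1, at −0.86 ± 0.09, while the cyclin CLN2 was among the higher at 0.42 ± 0.14.

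Of 14 G2/M genes, 4 were lower, a share of 28.6% near the background of 26.1%. In this list 1 gene was higher, and the median was −0.14. CLB2, the main mitotic cyclin, had 8.31 after SMER3, 9.97 and 10.04 after SMER1, and 10.46, 11.09 and 11.06 in DMSO (−1.69 ± 0.27, adjusted p = 0.00214). CLB1 had 10.75 after SMER3, 11.96 and 11.88 after SMER1, and between 11.90 and 11.98 in DMSO (−1.17 ± 0.09). KIN3 and CLB3 differed by −0.56 and −0.45 and were not called without SMER1 replicate 1 (adjusted p = 0.0514 and 0.0565), which left 2. Among 11 daughter cell separation genes 4 were lower and none was higher, with a median of −0.23. SCW11, a cell wall glucanase, had 10.91 after SMER3, 12.36 and 12.53 after SMER1, and between 12.30 and 12.31 in DMSO (−1.53 ± 0.12). Of 9 histone genes 1 was higher and 1 was lower. The DNA damage list of 11 genes had 3 higher and 4 lower members, with RNR3, a ribonucleotide reductase subunit, higher by 1.11 ± 0.13 and the photolyase PHR1 and the glycosylase MAG1 lower, at −1.35 ± 0.26 and −1.06 ± 0.10.

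The metal lists held more genes called lower than higher after SMER3, with under 2-fold medians. Not called were 11 of 27 iron, 5 of 11 zinc and 1 of 8 copper genes. The iron regulon had 13 of 27 genes lower and 3 higher, with a median of −0.60. Its median distance from the DMSO mean was −0.19 on the SMER3 array and 0.66 and 0.46 on the SMER1 arrays. Beside LSO1 and FRE5, VHT1, the biotin transporter, had 10.74 after SMER3, 12.10 and 12.23 after SMER1, and between 11.32 and 11.42 in DMSO (−1.42 ± 0.10). TIS11, which destabilises iron-dependent mRNAs when iron is scarce, had 10.99 after SMER3, a mean of 12.98 after SMER1, and 11.65, 11.35 and 11.08 in DMSO (−1.99 ± 0.22). Its paralogue CTH1 went the other way with 12.54 after SMER3, 10.96 and 11.16 after SMER1, and a mean of 10.94 ± 0.09 in DMSO (SD, n = 3), a difference of 1.48 ± 0.14.

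Of 8 copper genes 5 were lower and 2 were higher, with a median of −0.72. CTR1, the high-affinity copper transporter, had 11.38 after SMER3, 13.66 and 13.80 after SMER1, and 12.36, 12.71 and 12.65 in DMSO, on either side of the solvent (−2.35 ± 0.17, adjusted p = 7.58e-05). CCC2, the copper ATPase, differed by −1.65 ± 0.22, and CUP2, the activator of metallothionein, by 0.83 ± 0.19. Without SMER1 replicate 2, 3 copper genes were called lower. In the zinc regulon 5 of 11 genes were lower and 1 was higher, with a median of −0.14. ZAP1, the zinc-responsive activator, had 9.05 after SMER3, 10.80 and 11.03 after SMER1, and between 9.70 and 9.79 in DMSO (−1.86 ± 0.12), and its targets ZRT2 and ZRT1, the zinc permeases, differed by −1.38 and −1.19. These 3 were the lower calls left without SMER1 replicate 2, and 3 were also left without either array of SMER1 with rapamycin. Of 15 phosphate genes 3 were higher and 2 were lower, with PHO5, an acid phosphatase, at 0.88 ± 0.15 and PHO84, the phosphate transporter, at −0.68 ± 0.15.

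Amino acid genes under Gcn4 had 9 of 38 members higher (23.7%, near the background of 20.6%) and 3 lower, with a median of 0.15. Quantile normalisation gave 19 higher. ILV5, of branched-chain synthesis, had 12.26 after SMER3, 14.04 and 13.95 after SMER1, and 13.94, 14.06 and 13.69 in DMSO, where SMER1 matched the solvent range and SMER3 was lower (−1.74 ± 0.15, adjusted p = 0.000174). LYS4, homoaconitase, had 11.47 after SMER3, 9.66 and 9.93 after SMER1, and between 11.04 and 11.48 in DMSO (1.67 ± 0.24). LEU9, a minor isopropylmalate synthase, was higher by 1.38 ± 0.09 and its main partner LEU4 differed by −0.19. ARG3 and ARG1, of arginine synthesis, were higher by 1.36 ± 0.14 and 1.07 ± 0.16.

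Ergosterol genes were higher in 9 of 27 cases and lower in 1, with a median of 0.18. ERG3, a sterol desaturase, had 12.63 after SMER3, 11.63 and 11.38 after SMER1, and between 12.70 and 12.82 in DMSO (1.12 ± 0.12, adjusted p = 0.000455). CYB5, cytochrome b5, was higher by 1.23 ± 0.13, and after SMER3 these genes differed from the DMSO mean by −0.14 and −0.61. Of 12 thiamine genes 2 were higher and 3 were lower, which is 16.7% and 25% beside the background of 20.6% and 26.1%. THI7, the thiamine transporter, had 10.15 after SMER3, 11.58 and 12.11 after SMER1, and between 10.57 and 10.82 in DMSO (−1.69 ± 0.23), and PET18 was higher by 1.61 ± 0.12.

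The markers of the strain were read on the same arrays. URA3, which BY4741 lacks, stayed low, at 4.04 after SMER3, 2.33 and 2.70 after SMER1, and between 3.72 and 4.55 in DMSO. LEU2, likewise deleted in BY4741, had 6.29 after SMER3, 8.21 and 8.35 after SMER1, and 7.99, 7.76 and 8.13 in DMSO (−1.99 ± 0.28, adjusted p = 0.00121). This cannot be read as a change of a LEU2 transcript, and the source of the signal was not tested. HIS3, partly deleted in the strain, had 12.51 after SMER3, 12.62 and 12.61 after SMER1, and between 12.53 and 12.70 in DMSO. Of 6 genes specific to MATa cells 3 were lower and none was higher, and the pheromone gene MFA1 differed by 0.02 (95% interval −0.22 to 0.25). STE2, the receptor, differed by −0.50 ± 0.15 (adjusted p = 0.0267) and MFA2 by −0.48, and both were lost without SMER1 replicate 2 (adjusted p = 0.104 and 0.0712), which left ASG7, and MFA2 also without SMER1 replicate 1 (0.0677). Of 4 MATalpha genes, whose signals should be background in a MATa strain, 1 was called higher and 1 lower. MF(ALPHA)1 had 6.53 after SMER3, 4.20 and 4.43 after SMER1, and 4.04, 3.90 and 3.80 in DMSO, and STE3 had 7.10 after SMER3, 8.25 and 8.42 after SMER1, and 7.21, 6.58 and 6.94 in DMSO. The part of such dim signals in the other results was not tested.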

How the data were processed

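The deposited values are log2 signals of 5716 probe sets on 13 one-colour Affymetrix arrays. The log2 scale was read from the deposited range of 0 to 14.67. Per the labels' protocols, total RNA was extracted with RiboPure-Yeast, checked on a Bioanalyzer and labelled by One-Cycle Target Labeling. Probe summarisation, background correction and normalisation are not given in the sources used here. Depth has no equivalent on arrays, and the number of arrays limits the precision.

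Samples were grouped by their titles. Probe sets were named through GEO's platform annotation, with 12 symbols updated from RefSeq R64. For 47 genes with more than 1 probe set, the brightest was kept (in 1 gene the probe sets were called in opposite directions), and 115 genes rest on probe sets marked as shared. The deposited log2 values were fitted with limma 3.58.1 in R 4.3.3 with 1 mean for each of 8 groups, with variances moderated by eBayes (5 residual and 2.36 prior degrees of freedom) and adjusted by Benjamini-Hochberg over 5449 genes. The code was tested on simulated data. Tests were two-sided, and intervals are 95%.

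The text names the 15 genes per direction with the largest differences among called genes at least 1 log2 unit outside both SMER1 arrays with a higher mean of at least 7, up to 5 called members per list, and every gene of 5 lists and of the strain markers. Other genes, such as the partners of isozymes and a few further called members, were named after their values were seen. The members and lists were chosen with earlier results of these data known. Promoter motifs were planned and not analysed here. Alternatives covered scaling, dim genes, arrays in the fit, moderation, a replicate block and leaving out each replicate.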

Additional observations from a re-analysis of the deposited data

Results flagged for a closer look

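Among the 218 probe sets without a gene name, which no comparison above uses, 24 were at least 1 log2 unit above every DMSO array on the SMER3 array with a signal of at least 7 there. They were singled out as a signal above the solvent controls in values outside the main comparison. In 1 of them the signal was 11.71 after SMER3, 10.20 and 10.32 after SMER1, and between 6.10 and 6.30 in DMSO. In another it was 12.81 after SMER3, 10.04 and 10.14 after SMER1, and at most 8.43 in DMSO. Not all of them were higher after SMER3 than after SMER1. For example, 1 had 9.785 after SMER3, 11.92 and 12.08 after SMER1, and at most 8.54 in DMSO. The share of named probe sets that pass the same rule was not worked out, so the count of 24 has no background beside it. Which transcripts these probe sets measure was not analysed here.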

How the results depend on the processing

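The counts of genes higher and lower after SMER3 stayed within 1.5 times of 1122 and 1420 in all alternatives run. Quantile normalisation gave 1268 and 1435, and centring the arrays on their medians gave 1037 and 1539. With the dimmest 25% of genes left out, 4087 genes were tested and the counts past 2-fold were 238 higher and 180 lower, against 381 and 319. Both counts fell by a larger share than the 25% of genes left out, so dim genes held more than their share of them. In that setting the lists of dim genes also held fewer calls: 5 higher among the Yap1 genes, 2 higher in sulfur uptake and salvage, 1 lower among the hexose transporters, 6 lower in autophagy, and none higher in the DNA damage list. Leaving out single replicates gave 886 to 1141 higher and 1098 to 1447 lower. With the replicate number as a replicate block, 1470 genes were higher and 1909 lower. The block gave 4 higher and 5 lower among the methionine and cysteine synthesis genes, 15 higher among the cytosolic ribosomal protein genes, 16 higher among the Gcn4 targets and 20 lower in the iron regulon. Deviations of the arrays numbered 1 correlated at 0.43 to 0.598 between groups, and those numbered 2 at 0.436 to 0.598 between the 2-array groups, where they mirror the arrays numbered 1. DMSO replicate 2 correlated with the SMER1 array of its number at 0.07, with the rapamycin array at 0.085 and with the array of both agents at 0.131. Since not every pair passed 0.1, the main fit did not take the numbers to pair the samples. The arrays numbered 1 nevertheless shared deviations in every pair, and the SMER3 array is also numbered 1. The main fit leaves these shared deviations in, and only the replicate block accounts for them. Their source was not tested. Of 206 called genes among the 240 named by the rule, 167 kept their call in every alternative that tested them and 39 lost it in at least 1. Of the other 34, 15 gained a call in at least 1. No direction was reversed in a called result. SMER3 rests on 1 array, which no alternative could replace, and dim signals scatter most.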
